A study of Mus musculus with 8 samples.

Results

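The genes described here are 8 transcripts by which monocytes and macrophages are commonly recognised: Lyz1, Lyz2, Ly6c2, Cd68, Maf, Ace, Mmp12 and Vcan. They were chosen by name and found by their Ensembl IDs, 8 of 8, among the 55487 genes counted in RNA-seq libraries of conventional dendritic cells (cDC) from mouse spleen. The libraries came from cDC1 that carry Zeb2 -165(d1+2+3) (Zeb2 mutant), from wild-type cDC1, from cDC2 that carry Irf8 +32-/- (Irf8 mutant), and from wild-type cDC2, with 2 libraries, replicates 2 and 3, in each of the 4 groups. All mice were C57BL/6 and all cells were untreated. Each library was made from 100000 sorted cells and held 49380686 to 58611821 counts. Both genotypes name enhancers, not coding sequence: the +32 enhancer of Irf8 is known to be needed for cDC1 to develop and the -165 enhancer of Zeb2 for cDC2, so each mutant was profiled in the cell type that it retains. Genotype and cell type therefore cannot be told apart between the mutant groups. The number of animals behind a library is not given in the sources used here, so the p-values measure the spread between these libraries, which may be technical.

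Monocytes arise in the bone marrow and leave it as classical cells, which carry the Ly6C surface protein and enter inflamed tissue, and partly turn into non-classical cells, which patrol vessels. Macrophages settle in tissues, where they engulf and digest cells and microbes, remodel matrix and, in the spleen, clear worn red cells. Conventional dendritic cells sample antigen and show it to T cells, and cDC2 share more of their genes with monocytes than cDC1 do. The 8 genes cover digestion (the lysozymes Lyz1 and Lyz2, the lysosomal glycoprotein Cd68), extracellular matrix (the macrophage elastase Mmp12, the matrix proteoglycan versican, Vcan), cell surface proteins (the angiotensin-converting enzyme Ace, the Ly6C component Ly6c2) and transcription (the bZIP factor Maf). Several are used by other cells too: neutrophils contain lysozyme, and non-classical monocytes express Ace.

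The lysozyme pair comes first, since its members are near copies whose reads a counter must keep apart. Lyz1 (ENSMUSG00000069515, GRCm38 chromosome 10, 117287797 to 117292868) and Lyz2 (ENSMUSG00000069516, chromosome 10, 117277331 to 117282321) lie on the minus strand with 5475 bases between them. Their coding sequences are 447 bases each, and 425 bases are identical (95.1%). The first 150 coding bases from the GENCODE M21 transcripts, with the 14 bases at which the genes differ in capitals, show where reads can be assigned.
Lyz1: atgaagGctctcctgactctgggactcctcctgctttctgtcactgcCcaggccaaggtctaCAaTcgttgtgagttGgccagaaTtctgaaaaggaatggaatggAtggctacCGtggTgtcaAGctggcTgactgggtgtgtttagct
Lyz2: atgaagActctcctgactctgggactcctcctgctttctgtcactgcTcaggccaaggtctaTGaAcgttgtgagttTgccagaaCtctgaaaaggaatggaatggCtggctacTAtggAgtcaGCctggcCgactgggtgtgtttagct
Of all stretches of 150 bases, the read length, in either transcript, none occurs in another gene's transcripts. Of stretches of 100 bases, 24 of 1164 in Lyz1 (2.06%) and 24 of 1217 in Lyz2 (1.97%) occur in the other gene. For Ly6c2, 39 of 2737 stretches of 150 bases (1.42%) and 159 of 2737 of 100 bases (5.81%) occur in Ly6c1, its neighbouring Ly6C gene; the other 5 genes share none of either length. How the counting treated reads shared between genes is not given in the sources used here.

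Mmp12 and Ace were at 0.535 to 3.13 CPM (counts per 1000000, with library sizes scaled by TMM) in every cDC1 library and above 100 CPM in every cDC2 library, whichever the genotype. Lyz2 and Cd68 were among the most abundant transcripts of both cell types, and Ly6c2 was low in both but higher in cDC1. None of the 8 genes passed edgeR's test between a mutant and its wild type, although Lyz1 was lower in both Irf8 mutant cDC2 libraries than in both wild-type ones and passed in DESeq2.

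**Figure D1:**
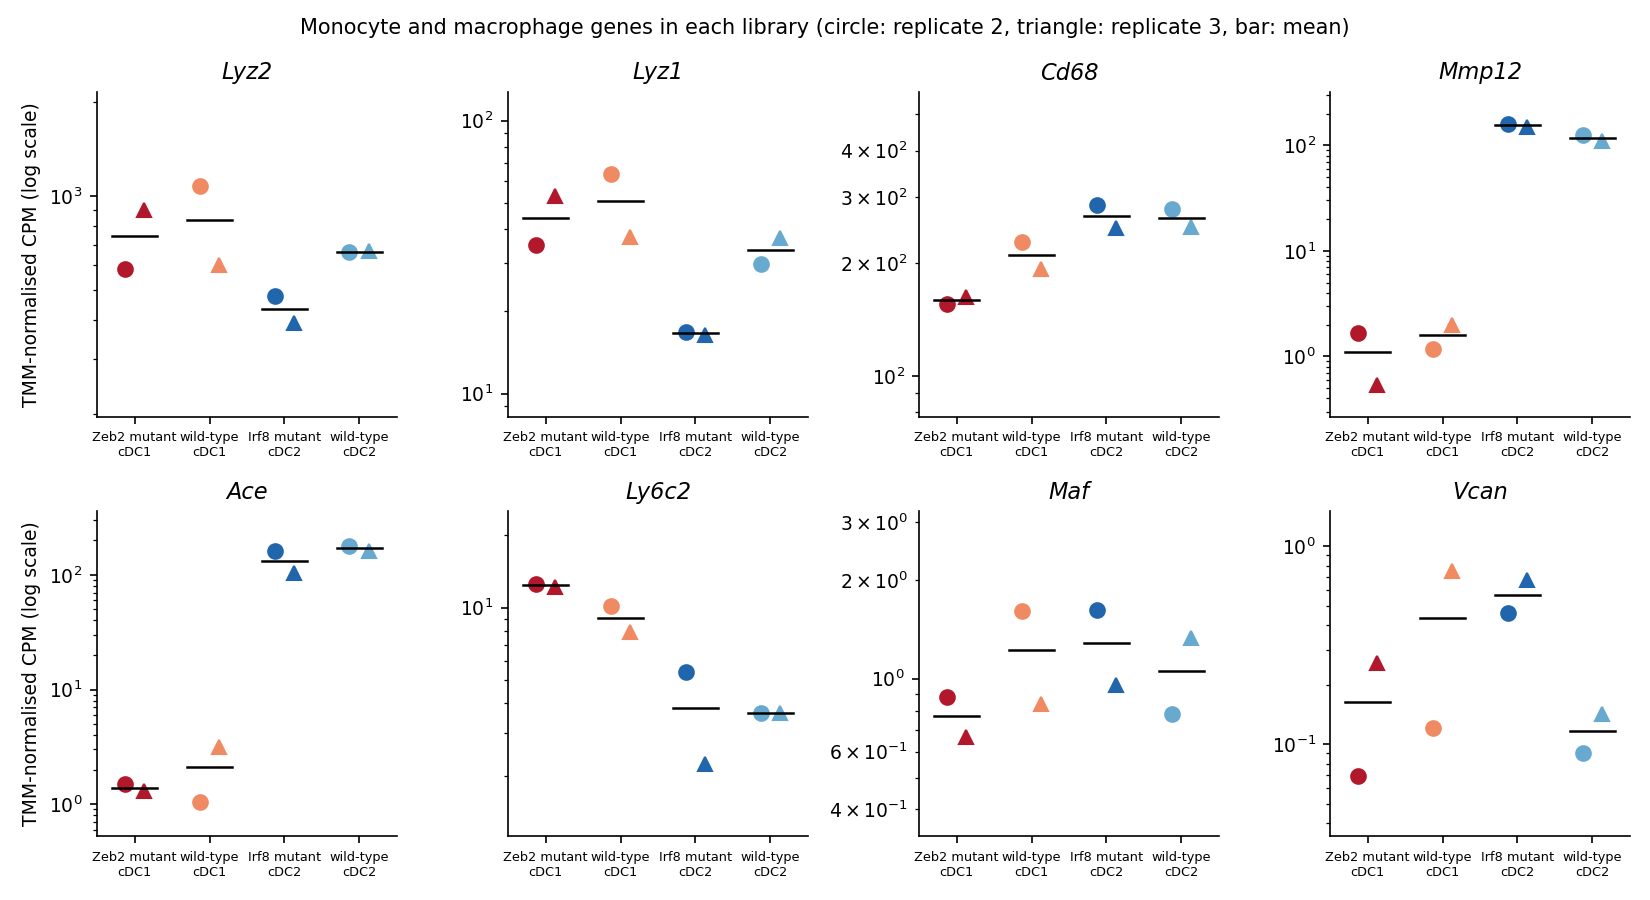
TMM-normalised CPM (log axis, a different range in each panel) of the 8 genes in each library, with the mean of each group as a bar. Mmp12 and Ace separate the 4 cDC2 libraries from the 4 cDC1 libraries, whereas Lyz2 overlaps between the cell types and Maf overlaps between all neighbouring groups.

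Mmp12 encodes macrophage metalloelastase, a secreted enzyme that degrades elastin and other matrix (ENSMUSG00000049723, chromosome 9, 7344381 to 7369499, plus strand). Ace encodes the peptidase that turns angiotensin I into angiotensin II and trims peptides for MHC class I (ENSMUSG00000020681, chromosome 11, 105967945 to 105989964, plus strand). Because the levels of these genes part the cell types alike, RefSeq's first promoter window of each, 250 bases before to 50 after the start (GRCm38.p6), is shown. It is chr9:7344147-7344446 for Mmp12 and chr11:105967698-105967997 for Ace, both on the plus strand, and capitals mark matches to the motifs searched.
Mmp12: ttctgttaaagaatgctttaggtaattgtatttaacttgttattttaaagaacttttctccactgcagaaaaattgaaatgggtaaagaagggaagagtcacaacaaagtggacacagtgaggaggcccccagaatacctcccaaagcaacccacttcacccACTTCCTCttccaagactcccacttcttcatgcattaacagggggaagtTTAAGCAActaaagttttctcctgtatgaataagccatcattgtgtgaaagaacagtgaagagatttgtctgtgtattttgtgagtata
Ace: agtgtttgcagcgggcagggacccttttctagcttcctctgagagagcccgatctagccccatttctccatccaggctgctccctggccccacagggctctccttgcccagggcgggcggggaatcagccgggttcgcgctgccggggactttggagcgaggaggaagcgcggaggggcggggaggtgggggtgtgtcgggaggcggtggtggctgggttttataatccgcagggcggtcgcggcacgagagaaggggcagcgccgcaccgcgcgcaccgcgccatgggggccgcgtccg
Motifs were searched on both strands by their letters: PU.1 as GAGGAAGT, the ETS-IRF element as GGAA and then GAAA with 2 free bases between, the interferon response element core as GAAA and GAAA with 2 free bases between (the GAAA parts of both can overlap), C/EBP as TTGCNNAA, AP-1 as TGANTCA, the ZEB E-box as CACCTG and the Maf element as TGCTGA. The Mmp12 window holds the PU.1 letters, first base 88 bases before the start, and the C/EBP letters, 39 bases before it, both on the minus strand. The Ace window holds none of the 7. Of 32851 mouse promoter windows of this length, 3.20% hold the PU.1 letters, 10.8% the C/EBP letters, 2.72% the ETS-IRF letters, 3.44% the interferon response core, 7.81% the AP-1 letters, 20.2% the ZEB E-box and 19.5% the Maf letters. A second window of each gene held the AP-1 letters (Mmp12) and the Maf letters (Ace). RefSeq windows were found for 7 of the 8 genes, all but Maf. In Cd68 the matches were AP-1 at 2 places, C/EBP and ETS-IRF; in Ly6c2, PU.1; in Lyz1, C/EBP; in Lyz2, the Maf letters; and in Vcan, none. These matches are descriptions of letters, not of binding.

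Mmp12 stood at 1.65 and 0.535 CPM in Zeb2 mutant cDC1, at 1.18 and 1.98 CPM in wild-type cDC1, at 160.0 and 150.4 CPM in Irf8 mutant cDC2, and at 127 and 109.9 CPM in wild-type cDC2 (replicate 2, then replicate 3). Every cDC2 library lay far above every cDC1 library. In wild type, the means were 1.58 ± 0.572 CPM for cDC1 and 118 ± 11.8 for cDC2 (SD, n = 2 each), so that Mmp12 was 74.8-fold lower in cDC1 (log2 fold change -6.22, SE 0.401, edgeR adjusted p = 2.49e-06). Between the mutants it was 142-fold lower in Zeb2 mutant cDC1 than in Irf8 mutant cDC2 (log2 fold change -7.13, SE 0.421, edgeR adjusted p = 1.41e-06). Both Irf8 mutant libraries lay above both wild-type cDC2 libraries, by a log2 fold change of 0.39 with a 95% interval of -0.29 to 1.08, which did not pass the test (edgeR adjusted p = 0.933).

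Ace stood at 1.50 and 1.29 CPM in Zeb2 mutant cDC1, at 1.05 and 3.13 CPM in wild-type cDC1, at 163 and 103 CPM in Irf8 mutant cDC2, and at 179 and 161 CPM in wild-type cDC2. The cell types again did not overlap, whereas mutant and wild type did within each cell type. Ace was 81.4-fold lower in wild-type cDC1 than in wild-type cDC2 (log2 fold change -6.34, SE 0.462, edgeR adjusted p = 1.28e-05) and 95.3-fold lower in Zeb2 mutant cDC1 than in Irf8 mutant cDC2 (log2 fold change -6.57, SE 0.473, edgeR adjusted p = 1.22e-05). Over the 8 libraries the log2 levels of Ace and Mmp12, each centred on its own mean, differed by a root mean square of 0.53, with a correlation of 0.988 that reflects the cell type difference both share.

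Lyz2, the lysozyme that macrophages and other myeloid cells secrete, was at 585 and 902 CPM in Zeb2 mutant cDC1, at 1078 and 602 CPM in wild-type cDC1, at 478 and 393 CPM in Irf8 mutant cDC2, and at 663 and 666 CPM in wild-type cDC2. The wild-type groups overlapped because the wild-type cDC1 libraries lay on either side of the cDC2 libraries, and their difference did not pass the test (log2 fold change 0.34, 95% interval -0.25 to 0.93, edgeR adjusted p = 0.388). Both Zeb2 mutant cDC1 libraries lay above both Irf8 mutant cDC2 libraries, by a log2 fold change of 0.77 (SE 0.266, 1.71-fold), which narrowly missed the threshold (edgeR adjusted p = 0.0553, DESeq2 0.0126, and 1.28e-05 to 0.377 over all its alternatives).

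Lyz1, the lysozyme known from mouse Paneth cells of the gut, was at 35.1 and 53.1 CPM in Zeb2 mutant cDC1, at 63.6 and 37.6 CPM in wild-type cDC1, at 16.9 and 16.5 CPM in Irf8 mutant cDC2, and at 29.9 and 37.2 CPM in wild-type cDC2. The 2 Irf8 mutant libraries were the lowest of all. Lyz1 was 2.65-fold higher in Zeb2 mutant cDC1 than in Irf8 mutant cDC2 (log2 fold change 1.40, SE 0.264, edgeR adjusted p = 0.00257), but the difference between wild-type cDC1 and wild-type cDC2 of 0.59 did not pass (95% interval 0.02 to 1.17, edgeR adjusted p = 0.114). Without wild-type cDC1 replicate 2 that difference was 0.16 for Lyz1 and -0.14 for Lyz2, and without wild-type cDC1 replicate 3 it was 0.92 and 0.70. Wild-type cDC1 replicate 2 had 25993 genes with a count and replicate 3 had 32358, where the other libraries had 27547 to 29775. The part of this library difference in the lysozyme values was not tested. With the counts of Lyz1 and Lyz2 summed, the difference between the mutants was 0.80 on the log2 scale (edgeR adjusted p = 0.0472). Lyz1 held 5.67% and 5.56% of the lysozyme counts in Zeb2 mutant cDC1, 5.57% and 5.89% in wild-type cDC1, 3.41% and 4.02% in Irf8 mutant cDC2, and 4.31% and 5.30% in wild-type cDC2. Its share was thus higher in all 4 cDC1 libraries than in the 4 cDC2 libraries. Replicate 2 minus replicate 3, in log2 CPM, was -0.59 for Lyz1 and -0.62 for Lyz2 in Zeb2 mutant cDC1, and 0.76 and 0.84 in wild-type cDC1. It was 0.04 and 0.28 in Irf8 mutant cDC2, and -0.32 and -0.01 in wild-type cDC2. The lysozymes thus differed alike between replicates in both cDC1 groups but not in the cDC2 groups. The median size over all tested genes was 0.25, 0.40, 0.34 and 0.22 in the same order of groups.

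Cd68, a heavily glycosylated lysosomal membrane protein used as a macrophage stain (ENSMUSG00000018774, chromosome 11, 69664213 to 69666153, minus strand), was at 155 and 163 CPM in Zeb2 mutant cDC1, at 228 and 193 CPM in wild-type cDC1, at 287 and 248 CPM in Irf8 mutant cDC2, and at 279.5 and 249.7 CPM in wild-type cDC2. Its libraries varied least among the 8 genes in log2 terms, and cDC1 lay below cDC2 in both pairs of groups. The difference passed between the mutants, where Cd68 was 1.68-fold lower in Zeb2 mutant cDC1 than in Irf8 mutant cDC2 (log2 fold change -0.75, SE 0.138, edgeR adjusted p = 0.00222). Between wild-type cDC1 and wild-type cDC2 it was -0.33 and did not pass (95% interval -0.64 to -0.03, edgeR adjusted p = 0.0958).

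Ly6c2, which encodes part of the Ly6C antigen of classical monocytes (ENSMUSG00000022584, chromosome 15, 75108158 to 75111970, minus strand), was at 12.6 and 12.2 CPM in Zeb2 mutant cDC1, at 10.1 and 7.94 CPM in wild-type cDC1, at 5.37 and 2.24 CPM in Irf8 mutant cDC2, and at 3.64 and 3.66 CPM in wild-type cDC2. All 4 cDC1 libraries lay above all 4 cDC2 libraries. It was 2.48-fold higher in wild-type cDC1 than in wild-type cDC2 (log2 fold change 1.31, SE 0.356, edgeR adjusted p = 0.0185) and 3.25-fold higher in Zeb2 mutant cDC1 than in Irf8 mutant cDC2 (log2 fold change 1.70, SE 0.359, edgeR adjusted p = 0.00515). Leaving out replicate 2 of wild-type cDC1 ended the wild-type call (edgeR adjusted p = 0.077), as did leaving out replicate 2 or 3 of wild-type cDC2 (edgeR adjusted p = 0.102 and 0.0945); over all its alternatives the adjusted p was 5.34e-05 to 0.102. With Ly6c1 counts added, the log2 fold change was 1.18 in wild type (edgeR adjusted p = 0.0264). Of 10 listed T and natural killer cell genes, 4 were higher in wild-type cDC1 and 0 lower. Over all tested genes 14.2% were higher and 15.9% lower. The 10 summed to 100.0 and 80.2 CPM in Zeb2 mutant cDC1 and 81.7 and 70.5 CPM in wild-type cDC1. In cDC2 the sums were 61.6 and 47.7 CPM (Irf8 mutant) and 64.0 and 63.6 CPM (wild type). The part of such cells in the Ly6c2 values was not tested.

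Maf and Vcan had the lowest mean levels of the 8 genes over the libraries. Maf, a transcription factor of tissue macrophages (ENSMUSG00000055435, chromosome 8, 115682942 to 115707794, minus strand), had 51 and 36 counts in Zeb2 mutant cDC1, 93 and 49 in wild-type cDC1, 84 and 47 in Irf8 mutant cDC2, and 43 and 75 in wild-type cDC2. Its level was 0.664 to 1.62 CPM over all 8 libraries and passed no test, with edgeR adjusted p of 0.804 between the wild-type cell types and 0.330 between the mutants. Vcan, a proteoglycan that human classical monocytes express strongly (ENSMUSG00000021614, chromosome 13, 89655312 to 89742509, minus strand), had 4 and 14 counts in Zeb2 mutant cDC1, 7 and 44 in wild-type cDC1, 24 and 33 in Irf8 mutant cDC2, and 5 and 8 in wild-type cDC2. Wild-type cDC1 replicate 3 held 44 of the 51 counts of its group. The log2 fold change of 1.89 against wild-type cDC2 had a 95% interval of -0.37 to 4.14 (edgeR adjusted p = 0.200) and was 0.05 without that library.

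All 8 passed the filter on low counts. In wild type, 1 of 8 was higher in cDC1 (Ly6c2) and 2 of 8 lower (Mmp12, Ace), where 14.2% of all tested genes were higher and 15.9% lower, 30.1% in all. The groups' libraries did not overlap for 5 of 8, against 65.0% of all tested genes. Between Zeb2 mutant cDC1 and Irf8 mutant cDC2, 2 of 8 were higher (Lyz1, Ly6c2) and 3 of 8 lower (Mmp12, Ace, Cd68), against 12.8% and 15.0% of all tested genes, 27.9% in all, and the libraries did not overlap for 8 of 8, against 65.8%. The median log2 fold change of the 8 was 0.27 in wild type and -0.74 between the mutants, against 0.03 and -0.02 over all tested genes.

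**Figure D2:**
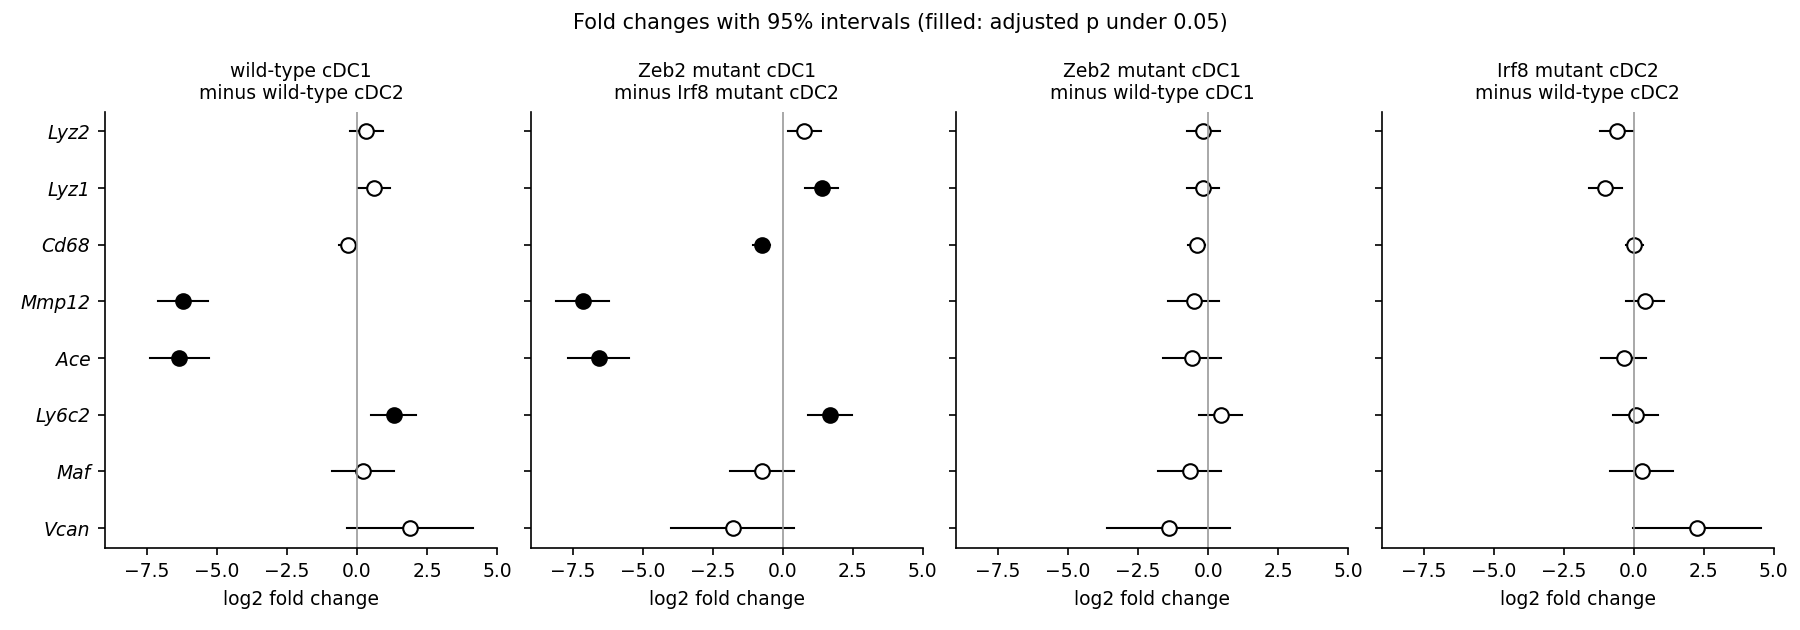
Log2 fold changes of the 8 genes in the 4 comparisons, each the first-named group minus the second, with 95% intervals. Filled points have an edgeR adjusted p under 0.05: 3 genes between wild-type cDC1 and cDC2, 5 between the mutants and none between a mutant and its wild type.

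Per length, in the deposited TPM (transcripts per 1000000), the order of the 8 genes differed between the cell types chiefly through Ace and Mmp12. In wild-type cDC1 the mean levels ran from Lyz2 at 1938 TPM, Cd68 at 515, Lyz1 at 122, Ly6c2 at 10.1, Ace at 1.27, Mmp12 at 0.688 and Maf at 0.450 to Vcan at 0.0981 TPM. In wild-type cDC2 they ran from Lyz2 at 1692 TPM, Cd68 at 705, Ace at 108, Lyz1 at 89.2, Mmp12 at 54.7, Ly6c2 at 4.46 and Maf at 0.432 to Vcan at 0.0271 TPM. Neighbours whose library ranges overlapped were Ace and Mmp12, and Mmp12 and Maf, in wild-type cDC1, and none in wild-type cDC2. Zeb2 mutant cDC1 kept the wild-type cDC1 order. In Irf8 mutant cDC2 Mmp12 (73.4 TPM) stood above Lyz1 (45.2 TPM), and the ranges of Ace (67.3 to 105) and Mmp12 (71.7 to 75.2) overlapped. Lyz2 ranked above at least 99.7% and Cd68 above at least 99.1% of the genes with a count in every group.

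The Zeb2 genotype was compared with wild type in cDC1, the cell type these mice retain. No member passed: edgeR called 0 of 8, where it called 14 of 20631 genes (0.0679%), 3 higher and 11 lower, or 1 and 10 with RLE scaling. At an unadjusted p under 0.05 there was 1 member, Cd68, and 2176 of all 20631 tested genes; DESeq2 called 0 members and 305 genes. Cd68 was lower in both mutant libraries, at 159 ± 5.14 CPM against 210.1 ± 24.7 CPM in wild-type cDC1 (SD, n = 2 each; log2 fold change -0.40, 95% interval -0.71 to -0.10, edgeR adjusted p = 0.358). The summed level of cDC2 markers was also lower in the mutant: the 10 listed genes summed to 33.3 and 27.7 CPM in Zeb2 mutant cDC1 against 48.4 and 37.8 CPM in wild-type cDC1. Of them edgeR called 1, which was lower, and DESeq2 called 3. That gene, Cd209a, a lectin of cDC2, was at 0.378 and 0.406 CPM in Zeb2 mutant cDC1 against 11.5 and 5.53 CPM in wild-type cDC1 (edgeR adjusted p = 0.00322). Most of the drop in the mean sum was that of Cd209a. The median log2 fold change of the 10 was -0.14, against -0.03 over all tested genes. The part of the cDC2 markers in the Cd68 difference was not tested. Without wild-type cDC1 replicate 3 Cd68 passed, at -0.52 (edgeR adjusted p = 0.0499), in a fit that called 1035 genes; over all its alternatives the adjusted p was 0.0499 to 0.925. Ly6c2 was higher in both mutant libraries, by 0.45 with an interval of -0.32 to 1.23. The libraries of these groups did not overlap for 2 of 8 members, Cd68 and Ly6c2, against 39.0% of all tested genes, and the other 6 log2 fold changes lay between -1.41 (Vcan) and -0.18 (Lyz2).

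The Irf8 genotype was compared with wild type in cDC2. No member and no gene passed edgeR's test (0 of 8, 0% of 20631 genes), with 2 members at an unadjusted p under 0.05, both lower, and 1313 genes in all; DESeq2 called 1 member and 151 genes. Lyz1 averaged 16.7 ± 0.292 CPM in Irf8 mutant cDC2 and 33.6 ± 5.20 CPM in wild-type cDC2 (SD, n = 2 each), a log2 fold change of -1.01 (SE 0.263, 95% interval -1.59 to -0.43) with an unadjusted p of 0.00312 and an edgeR adjusted p of 0.457. DESeq2 gave -1.02 with an adjusted p of 0.0176, and its lowest over all alternatives was 1.18e-05 (no filter); it passed in these 2 only. Lyz2 followed with 436 ± 60.3 CPM against 664 ± 2.11 CPM, a log2 fold change of -0.61 (95% interval -1.20 to -0.02, edgeR adjusted p = 0.773). Vcan was higher in both mutant libraries (log2 fold change 2.26, 95% interval -0.01 to 4.53, edgeR adjusted p = 0.787) on 57 counts against 13. Libraries did not overlap for 4 of 8 members, against 39.3% of all tested genes. Cd68 differed least, by 0.02 with an interval of -0.29 to 0.32.

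The mutants' effects were then compared with each other, each against its own wild type. No member differed by edgeR's test (0 of 8, where 0.0194% of all tested genes, 4, were called), with 1 member at an unadjusted p under 0.05, Vcan, beside 1573 of 20631 genes; DESeq2 called 0 members and 162 genes. For Lyz1 the effect in the Zeb2 mutant minus that in the Irf8 mutant was 0.81 (95% interval -0.004 to 1.62, edgeR adjusted p = 0.658), and for Vcan -3.67 (95% interval -6.83 to -0.51, edgeR adjusted p = 0.596). The lower Lyz1 of Irf8 mutant cDC2 was therefore not shown to differ from the effect of the Zeb2 genotype in cDC1.

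The genes whose enhancers the genotypes name were also measured. Irf8 averaged 3574 CPM in Zeb2 mutant cDC1, 3452 in wild-type cDC1, 133 in Irf8 mutant cDC2 and 115 in wild-type cDC2, and Zeb2 averaged 2.89, 2.10, 185 and 200.4 CPM in the same order. The genotypes name enhancers, not coding sequence, so these levels do not check the genotypes. Markers of the sorted cells matched the labels. All 9 listed cDC1 genes were higher and all 10 listed cDC2 genes lower in wild-type cDC1 than in wild-type cDC2; Xcr1, the chemokine receptor of cDC1, averaged 694 CPM in cDC1 against 3.59 in cDC2, and Sirpa, the cDC2 surface receptor, 2.24 CPM in cDC1 against 894 in cDC2. In these bulk libraries fewer cells of a type and less RNA per cell cannot be told apart. Lists of other monocyte and macrophage genes, with the 8 left out, leaned to cDC2. Itgam is in both the non-classical monocyte list and the cDC2 list. Of 18 classical monocyte genes 3 were higher in wild-type cDC1 and 12 lower (median log2 fold change -3.16), of 16 non-classical monocyte genes 3 higher and 13 lower (median -2.40), and of 22 tested macrophage genes 2 higher and 16 lower (median -2.52). Over all tested genes 14.2% were higher and 15.9% lower.

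**Figure D3:**
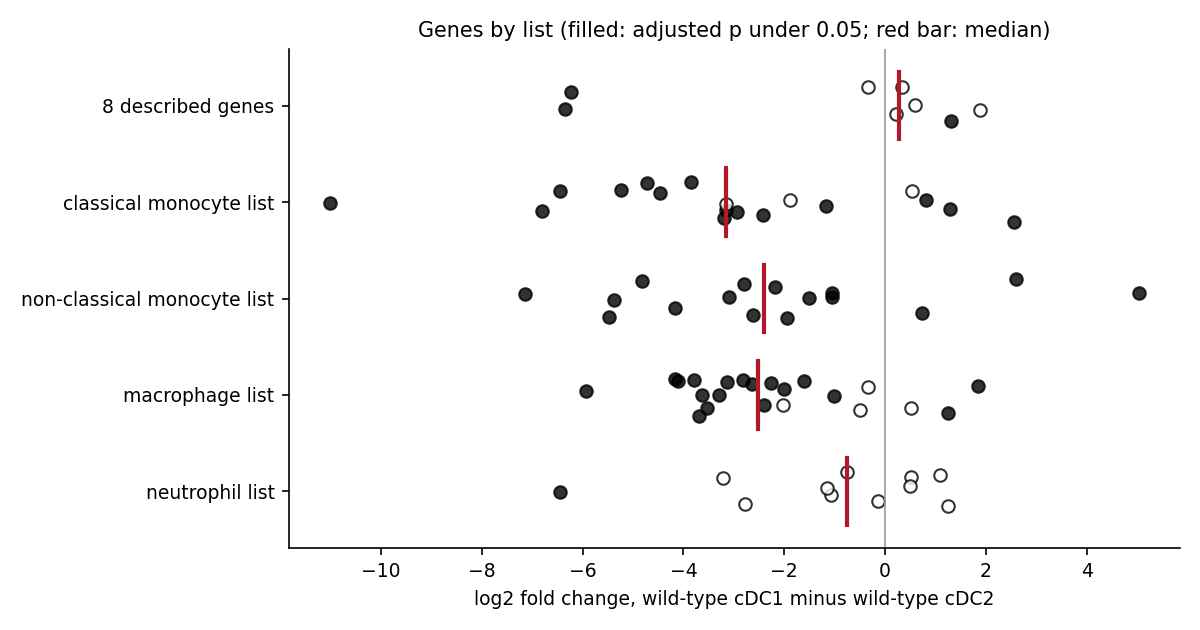
Log2 fold changes of wild-type cDC1 minus wild-type cDC2 for the 8 described genes and for lists of other marker genes, 1 point per tested gene, filled where the edgeR adjusted p is under 0.05. The lists of monocyte and macrophage genes have medians of -3.16, -2.40 and -2.52, while the 8 described genes have a median of 0.27 with Mmp12 and Ace far to the left.

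Among the genes that behaved like Mmp12 and Ace in wild type, Adgre1, which encodes the macrophage antigen F4/80, was 60.9-fold lower in cDC1, at a mean of 3.54 CPM against 216 in cDC2, and Csf1r, the receptor for macrophage colony-stimulating factor, was 41.6-fold lower, at 14.9 CPM in cDC1 against 618 in cDC2. Sirpb1a had 2 and 8 counts in cDC1 against 10264 and 10079 in cDC2, and F13a1, a subunit of coagulation factor XIII made by monocytes, 2 and 5 counts in cDC1 against 283 and 324 in cDC2. Both were called lower in cDC1, with cDC1 counts too few for a firm fold. C1qa, a complement component of macrophages, averaged 0.594 CPM in cDC1 against 10.3 in cDC2. Other listed genes ran the way of Ly6c2. Ccr2, the receptor that brings monocytes out of the marrow, was 1.74-fold higher in wild-type cDC1, Cd36, a scavenger receptor, 32.9-fold higher, and Lgals3, the lectin galectin-3, 3.61-fold higher. Between Zeb2 mutant cDC1 and Irf8 mutant cDC2 the counts were 3 higher and 9 lower for classical monocyte genes, 3 and 13 for non-classical ones, and 1 and 17 for macrophage genes. Over all tested genes 12.8% were higher and 15.0% lower.

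Relatives of the described genes were counted in the same way for wild-type cDC1 against wild-type cDC2. Of all tested genes, 14.2% were higher and 15.9% lower there. Of 12 tested matrix metalloproteinases and their inhibitors, 1 was higher (Mmp19, 3.00-fold) and 4 lower: Mmp9, which encodes gelatinase B, 107-fold, at 0.249 CPM in cDC1 against 26.6 in cDC2, Mmp14 (42.2-fold), Mmp17 (6.01-fold) and the inhibitor Timp2 (2.50-fold). Maff, a small Maf factor, was 2.73-fold lower in cDC1. Maf itself was at about 1 CPM in both. Of 7 tested Ly6 genes, Ly6a (4.19-fold) and Ly6e (2.44-fold) were higher, as Ly6c2 was, and Ly6i was lower (12.8-fold); Ly6c1, at 1.30 CPM in cDC1 against 0.898 in cDC2, did not pass (edgeR adjusted p = 0.447). Of 3 tested LAMP family relatives of Cd68, the lysosomal proteins Lamp1 (1.61-fold) and Lamp2 (1.60-fold) were lower. None of the other 6 lysozyme genes had enough counts to be tested. Of 9 tested genes around versican, Cd44, a hyaluronan receptor, was 1.91-fold higher and Tlr2, a receptor that versican can engage, 3.36-fold lower in cDC1.

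**Figure D4:**
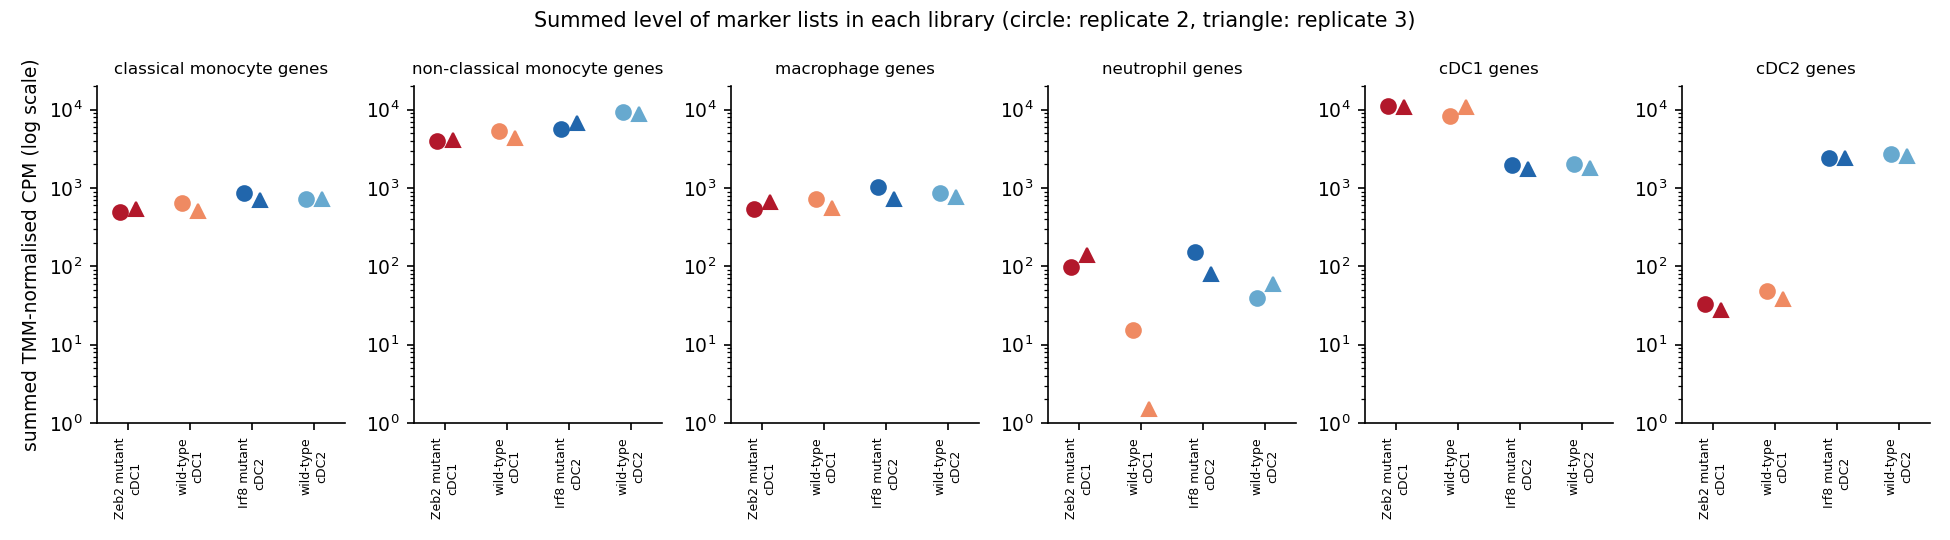
Summed TMM-normalised CPM (log axis) of the classical monocyte, non-classical monocyte, macrophage, neutrophil, cDC1 and cDC2 lists in each library. The neutrophil list is at 98.8 and 139 CPM in Zeb2 mutant cDC1, 15.3 and 1.51 CPM in wild-type cDC1, then 152 and 79.3 CPM in Irf8 mutant cDC2, and 39.2 and 58.8 CPM in wild-type cDC2, whereas the cDC1 and cDC2 lists separate the cell types.

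Because neutrophils and their precursors also contain lysozyme, their markers are given beside the lysozyme values. The summed level of the 12 neutrophil genes was 98.8 and 139 CPM in Zeb2 mutant cDC1 against 15.3 and 1.51 CPM in wild-type cDC1. It was 152 and 79.3 CPM in Irf8 mutant cDC2 against 39.2 and 58.8 CPM in wild-type cDC2. Of the wild-type cDC2 sums, 37.0 and 29.2 CPM were Csf3r, the receptor for granulocyte colony-stimulating factor. S100a8, an abundant neutrophil protein, was at 12.6 and 22.0 CPM in Zeb2 mutant cDC1, 1.83 and 0.120 CPM in wild-type cDC1, then 8.86 and 5.02 CPM in Irf8 mutant cDC2, and 0.0727 and 1.30 CPM in wild-type cDC2. Ly6g, which marks mature neutrophils, had 0 to 9 counts in every library. Between mutant and wild type, edgeR called 0 of 11 tested neutrophil genes in either cell type; 5 in cDC1 and 2 in cDC2 had an unadjusted p under 0.05, all higher in the mutant, and DESeq2 called 2 and 1. In each group Lyz2 was higher in the library with the higher neutrophil sum. In both cDC2 groups its libraries differed by less than the median gene. Irf8 mutant cDC2 had more of the neutrophil transcripts and less lysozyme than wild-type cDC2. Zeb2 mutant cDC1 also had more of these transcripts than wild-type cDC1. Lyz2 averaged 743 CPM there against 840 CPM in wild-type cDC1, with overlapping libraries. The part of neutrophils and their precursors in the lysozyme values was not tested.

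Summed levels of the monocyte and macrophage lists are given for comparison. The classical monocyte genes summed to 500.2 and 531 CPM in Zeb2 mutant cDC1, 642 and 514 CPM in wild-type cDC1, then 874 and 692 CPM in Irf8 mutant cDC2, and 716 and 714 CPM in wild-type cDC2, with at most 2 of 18 genes at 0 in a library. The macrophage genes summed to 533 and 659 CPM, 722 and 558 CPM, 1022 and 726 CPM, and 853 and 766 CPM in the same order of groups. The non-classical monocyte genes summed to 3952 and 4103 CPM in Zeb2 mutant cDC1 against 5388 and 4283 CPM in wild-type cDC1, and to 5719 and 6769 CPM in Irf8 mutant cDC2 against 9286 and 8705 CPM in wild-type cDC2. That sum was lower in both mutants than in wild type, with no overlap between libraries. Most of every sum was the listed gene Nr4a1. It was at 2735 and 2848 CPM in Zeb2 mutant cDC1 against 3962 and 3023 CPM in wild-type cDC1. In Irf8 mutant cDC2 it was at 3924 and 5104 CPM against 7503 and 6921 CPM in wild-type cDC2. Over the 16 genes the median log2 fold change was -0.12 in the Zeb2 mutant comparison, against -0.03 over all tested genes. In the Irf8 mutant comparison it was -0.06, against 0.01. None of the listed monocyte, macrophage or neutrophil genes was called by edgeR between a mutant and its wild type. At an unadjusted p under 0.05 there were, in the Zeb2 mutant comparison, 8 of 18 classical monocyte (4 higher, 4 lower), 5 of 16 non-classical monocyte (2 higher, 3 lower) and 10 of 22 macrophage genes (5 higher, 5 lower), beside 2176 of all 20631 tested genes. DESeq2 called 5, 2 and 4 of them, and 305 genes in all. In the Irf8 mutant comparison there were 3 (2 higher, 1 lower), 4 (1 higher, 3 lower) and 2 (both higher), beside 1313 of 20631 genes, and DESeq2 called 1, 1 and 0 of them, and 151 genes in all.

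The tested genes whose levels over the 8 libraries were most like each member, by the root mean square difference of log2 CPM after centring each gene on its own mean, were Cygb (0.35) and Tlr8 (0.41) for Mmp12, and Tlr8 (0.27) and Dkk2 (0.29) for Ace. Tlr8 averaged 0.0264 CPM in Zeb2 mutant cDC1, 0.0685 in wild-type cDC1, 9.31 in Irf8 mutant cDC2 and 8.36 CPM in wild-type cDC2. The closest genes to Cd68 were Adprh and Abtb1 (0.06 each), and to Ly6c2 Evi2 and Mterf2 (0.20 each). For Lyz2 they were Fbxo48 (0.19) and E2f3 (0.20), for Lyz1 Mybphl (0.16) and Ccdc40 (0.18), for Maf Zscan26 (0.19) and Fasl (0.20), and for Vcan Olfr554 (0.40) and Piezo2 (0.42). Lyz1 and Lyz2 differed from each other by 0.28. With 8 libraries in 4 groups, such likeness mostly describes the group means.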

How the data were processed

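RNA of 8 sorted spleen dendritic cell libraries was measured, 2 in each of 4 groups taken from the sample titles. Per the labels' protocols, 10 ng of total RNA went into the SMARTer Ultra Low kit, and paired reads of 150 bases were sequenced. The submitters' processing notes name STAR, bcl2fastq, Salmon and Subread's featureCounts, and the builds mm10 and GRCm38; strand setting and shared reads are not stated. The authors deposited per-gene counts, which are whole numbers per the file headers and values, and derived columns: the deposited CPM is the count per 1000000 of the library's total, the deposited FPKM is that CPM per kilobase of exon length, and the deposited TPM is the same scaled to 1000000 per library. These relations were checked on the values. Library totals were 49380686 to 58611821 counts. GENCODE M21 gave symbols for 55227 of 55487 gene IDs.

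Counts were fitted with edgeR 4.0.16 in R 4.3.3 (TMM scaling, filterByExpr by group, robust quasi-likelihood fit, 1 coefficient per group, all 8 libraries, 4 residual degrees of freedom, 20631 genes tested across the genome, common biological coefficient of variation 0.286). A gene was called at an adjusted p under 0.05 (Benjamini-Hochberg, over every gene tested). The SE is the log2 fold change's size over the square root of F, and folds are ratios of mean TMM CPM. An exact permutation test of 2 against 2 libraries cannot give a two-sided p under 0.333, so none is used. Over 13045 genes with at least 1 CPM on average, log2 fold changes followed exon length (Spearman's rho -0.26 in the wild-type comparison and 0.32 in the Zeb2 mutant comparison). The fit was tested on simulated counts. Alternatives were DESeq2 1.42.0, RLE or library-size scaling, other filters, only the compared libraries, a replicate block, a length offset, no robust estimation, summed near copies and leaving out each library. Sequences came from GENCODE M21 transcripts and RefSeq promoters (GRCm38.p6), read with Biopython 1.88. Named genes were the 8, the 2 genes most like each, and up to 3 called genes per direction of each list; for list genes given beyond these, values were seen first. The 8 genes and the lists were chosen with earlier results of these data known. Some listed genes are not reported here.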

Additional observations from a re-analysis of the deposited data

How the results depend on the processing

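Ace and Mmp12 kept their direction and their call between the cell types under all 17 alternatives, with log2 fold changes of -7.33 to -5.76 for Ace and -6.65 to -5.90 for Mmp12 in wild type. Of 682 member values under an alternative, 660 kept their side of the threshold, 19 newly passed, 3 no longer passed (Ly6c2 in wild type, above) and 0 called values turned round; 21 uncalled values changed sign, 18 of them when a library was left out. The cause of the changes below was not tested.

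Members called numbered 3 between the wild-type cell types and 2 to 5 when a library was left out, the 5 being without wild-type cDC1 replicate 3. For the Zeb2 mutant against wild-type cDC1 they numbered 0 to 1 when a library was left out. For the Irf8 mutant against wild-type cDC2 they numbered 1 in DESeq2 (Lyz1) and 2 without a filter (Lyz1 and Lyz2). Lyz2 between the mutants passed in 10 of 18 alternatives, with log2 fold changes of 0.42 to 1.05. Cd68 between the wild-type cell types passed with the length trend removed (-0.56, edgeR adjusted p = 0.0114) and without wild-type cDC1 replicate 2 (-0.46, edgeR adjusted p = 0.0304). Without wild-type cDC1 replicate 3, Lyz1 and Lyz2 passed there, at 0.92 and 0.70 (edgeR adjusted p = 0.00964 and 0.0396); without wild-type cDC1 replicate 2 they were 0.16 and -0.14 and did not (edgeR adjusted p = 0.676 and 0.712).

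Genes called for the Zeb2 mutant against wild-type cDC1 numbered 14, and 305 in DESeq2, 477 without a filter, 35 at a mean of at least 1 CPM, 7 with only the compared libraries, and 0 to 1035 when a library was left out, the 1035 being without wild-type cDC1 replicate 3. For the Irf8 mutant against wild-type cDC2 they numbered 0, and 7 with RLE scaling, 151 in DESeq2, 199 without a filter, 8 at a mean of at least 1 CPM, 7 with only the compared libraries, 2 with the length trend removed, and 0 to 15 when a library was left out. For the difference of the effects they numbered 4, and 162 in DESeq2, 306 without a filter and 0 to 530 when a library was left out. Between the wild-type cell types they numbered 6219, and 3800 to 6894 when a library was left out. A group left with 1 library was assumed to vary like the others.

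Libraries with the same replicate number did not deviate together (correlations of -0.025 to -0.0015 between groups). With 2 libraries in each group and no statement of what the numbers mean, this cannot settle whether they pair libraries. With the replicate block, the difference of the effects had 1 gene called against 4 without it, and no member's call changed.

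Vcan and Maf had 4 to 93 counts per library, and each group has 2 libraries.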
